A study of Schizosaccharomyces pombe with 4 samples.

Results

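The peroxiredoxin cycle, the catalase and the superoxide dismutases of the fission yeast Schizosaccharomyces pombe are described here by the transcripts of 10 genes, chosen by gene identifier among the 7092 genes that the deposited files list. They are the peroxiredoxin gene tpx1, the sulfiredoxin gene srx1, the thioredoxin gene trx1, the thioredoxin reductase gene trr1, the transcription factor gene pap1, its target obr1, the catalase gene ctt1, the glutathione peroxidase gene gpx1 and the superoxide dismutase genes sod1 and sod2. RNA was sequenced from a strain labelled as a deletion of loz1 and from a strain labelled wild type, with 2 libraries each. The study asked what depends on Loz1, a zinc finger repressor that shuts off zinc uptake genes when zinc is plentiful. All cultures were in EMM, a defined minimal medium, made low in zinc and then given zinc, at 100 mM by the labels, and were collected at an OD600 of about 6.0. The labels alone give the unit of that dose. No mating type, other allele or growth stage beyond the optical density is given, nor is it stated whether the libraries of a strain were grown as separate cultures. The p-values therefore measure only the spread between these libraries, which may be technical.

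Tpx1 is the main cytosolic peroxidase of this yeast. It reduces hydrogen peroxide through a reactive cysteine, is restored by thioredoxin and thioredoxin reductase at the cost of NADPH, and is repaired by sulfiredoxin when peroxide has over-oxidised it. Tpx1 also passes oxidation to Pap1, an AP-1-like factor that then gathers in the nucleus and turns on antioxidant genes, while the MAP kinase Sty1 acts on an overlapping set through the factor Atf1. Superoxide is handled by Sod1, which carries copper and zinc, and by Sod2, the manganese enzyme of mitochondria.

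The depth of the libraries, estimated from the width of the deposited bounds, was 1.65e+07 and 1.76e+07 fragments for the labelled deletion and 1.54e+07 and 1.55e+07 for wild type. The loz1 transcript itself measured 56.4 and 56.0 FPKM in the libraries labelled as its deletion, and 6.87 and 5.81 FPKM in wild type. Taken alone this level goes against the deletion label, but it does not show which part of the gene was transcribed. The reason was not tested. zrt1, for a zinc importer that Loz1 represses, ran with the label, at 977.3 and 964.0 FPKM against 17.8 and 31.0 FPKM in wild type. Its difference with limma was 5.31 (adjusted p = 0.00127). Directions are given for the libraries as labelled. FPKM is a fragment count scaled by transcript length and by sequencing depth. The mating-type gene mat1-Mc, chosen after its values were seen, stood at 0 and 0.137 FPKM under the deletion label, against 159.2 and 257.3 FPKM in wild type. The entries mat3-Mc (0 and 0.15 against 159.9 and 263.7 FPKM) and SPMTR.04 (0 and 0.15 against 159.1 and 262.1 FPKM) had nearly the same values. The handling of multiply mapped reads is not given, so the signal cannot be assigned to mat1-Mc alone. The part of this mating-type difference, and of any other strain difference it moves with, was not tested. In bulk RNA, fewer cells with a transcript and less of it per cell cannot be told apart.

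In the labelled deletion libraries 3 of the 10 genes, tpx1, srx1 and obr1, were higher, by 3.23- to 3.91-fold, and 1, sod2, was lower. The remaining 6 were not called. All 10 passed the filter on low values. Calls required an adjusted p below 0.05 in limma, fitted to log2(FPKM + 1) over all 6315 tested genes. By that rule 753 genes (11.9%) were higher and 276 (4.37%) lower, a split that became 434 and 321 after median-ratio rescaling. The median difference of the 10 genes was 0.31 on that log2 scale, beside 0.13 for all tested genes. This common shift of 0.13 is contained in each difference, and differences relative to it are given where they matter. In 6 genes both labelled deletion libraries lay above both wild-type ones and in 2 below, against 44.7% and 21.6% of all tested genes, so separation of the libraries alone was common.

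**Figure D1:**
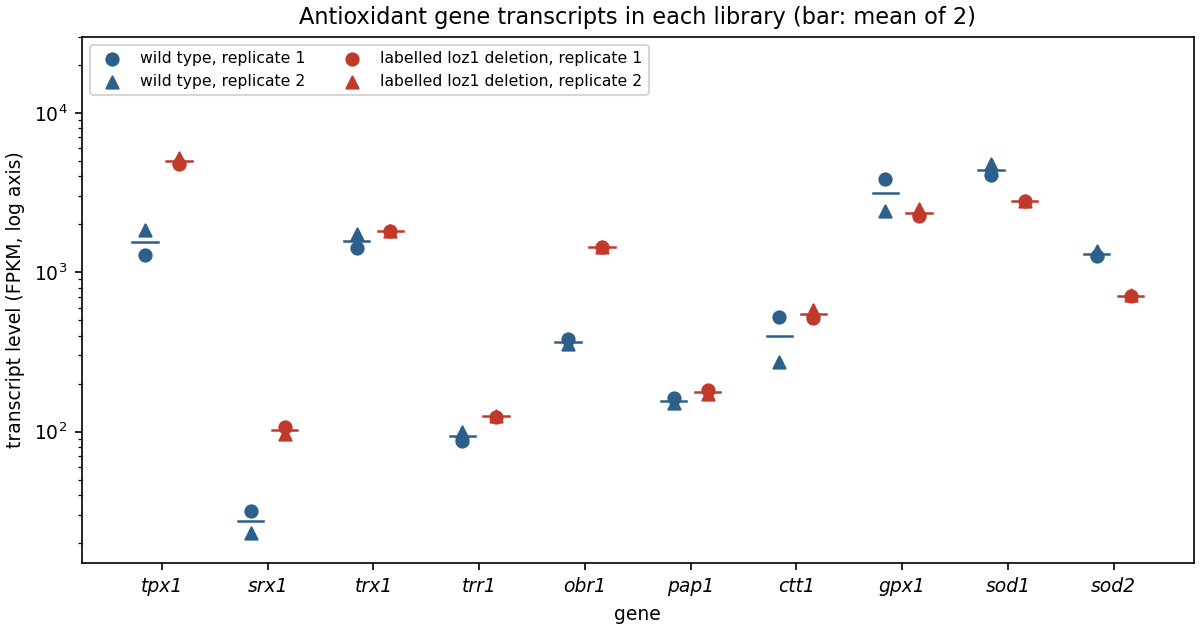
Level of each gene in each of the 4 libraries, in FPKM on a log axis, with wild type in blue, the labelled loz1 deletion in red, circles for replicate 1, triangles for replicate 2 and a bar at each mean of 2. The red points of tpx1, srx1 and obr1 lie far above the blue ones, those of sod1 and sod2 lie below, and those of ctt1 and gpx1 fall within or next to the wild-type range.

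The sequences before 4 of these genes are shown, those whose matches lie between bases 250 and 85 before the gene start. They hold elements by which this pathway is usually described, and genes with a like element were not all called. The windows were the 250 bases before the gene start in the RefSeq annotation (build ASM294v3). They were searched on both strands for TTACGTAA, TTAGTAA and TTAGTCA, which Pap1 and its relatives bind, for TGACGT, the core of the element bound by Atf1 and its partner Pcr1, and for the Loz1 response element. Capitals mark a match, and no matches overlapped. Each stretch runs 5′ to 3′ from base 250 to base 85 before the start, on the minus strand, at I:2095069-2095234 for obr1, II:2789672-2789837 for gpx1, III:2085804-2085969 for tpx1 and II:377097-377262 for srx1.
obr1: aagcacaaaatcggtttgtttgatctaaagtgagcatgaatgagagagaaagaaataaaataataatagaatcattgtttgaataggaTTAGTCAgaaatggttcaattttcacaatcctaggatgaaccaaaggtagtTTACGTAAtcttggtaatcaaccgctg
gpx1: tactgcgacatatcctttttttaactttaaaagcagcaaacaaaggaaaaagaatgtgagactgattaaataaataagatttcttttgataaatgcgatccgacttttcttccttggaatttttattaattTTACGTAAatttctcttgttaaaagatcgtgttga
tpx1: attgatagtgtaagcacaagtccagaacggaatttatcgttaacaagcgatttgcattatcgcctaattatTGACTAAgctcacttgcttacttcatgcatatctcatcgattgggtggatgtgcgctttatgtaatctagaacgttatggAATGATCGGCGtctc
srx1: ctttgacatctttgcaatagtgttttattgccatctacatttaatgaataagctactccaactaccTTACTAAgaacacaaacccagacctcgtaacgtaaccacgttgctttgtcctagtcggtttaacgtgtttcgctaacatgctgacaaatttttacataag

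The palindrome TTACGTAA stood at bases 111 to 104 before obr1 and at bases 119 to 112 before gpx1, and 0.469% of the 5112 promoter windows held it. A TTAGTCA match lay before obr1 and, read on the other strand as TGACTAA, before tpx1 (3.89% of windows), and a TTAGTAA match, read as TTACTAA, before srx1 (10.7%). A Loz1 response element, read on the other strand in the second block of capitals before tpx1, lay at bases 99 to 89. Only 18 windows (0.352%) held that element, and tpx1 was the sole 1 of the 10 genes among them. Of those 18 genes, all tested, 8 were called higher and 0 lower with limma, beside 11.9% and 4.37% of all tested genes. The 8 include tpx1 itself, zrt1 and its8, which is treated below beside obr1. A TGACGT match lay at bases 59 to 54 before ctt1 (5.52%). The windows of trx1, trr1, pap1, sod1 and sod2 held none of these letters. After trr1, treated below, the transcripts used for FPKM reach furthest beyond the RefSeq start in pap1 (146 nt) and obr1 (82 nt). Part of those windows thus lies inside the transcript. A match is a string in a window and does not show binding.

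tpx1, the peroxiredoxin gene (SPCC576.03c, III:2084942-2085706 in the files' build ASM294v2, minus strand, 1 exon), stood at 4802 and 5221 FPKM under the deletion label, against 1281 and 1827 FPKM in wild type. Both labelled deletion libraries lay far above both wild-type ones, and the mean level was 3.23-fold higher. The difference was 1.71 ± 0.23 (log2, SE, adjusted p = 0.014), or 1.58 relative to the median of all tested genes. By mean level it stood 159th among 5106 protein-coding genes in wild type and 8th in the labelled deletion. Without labelled deletion replicate 1 or 2 the call was lost (adjusted p = 0.178 and 0.205) at differences of 1.77 and 1.65. In such a fit the spread comes only from the other group, and the wild-type libraries differed more from each other, by a median of 0.241 over all tested genes against 0.092 for the labelled deletion (log2). tpx1 was called in the other 10 of 12 alternative settings, at up to 2.35 with quantile normalization.

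srx1 (SPBC106.02c, II:376253-377036, minus strand, 1 exon) encodes sulfiredoxin, which repairs over-oxidised Tpx1. Its transcript stood at 106.8 and 96.2 FPKM under the deletion label, against 31.6 and 23.2 FPKM in wild type, so the groups were well apart. The mean level was 3.71-fold higher, a difference of 1.87 ± 0.17 (adjusted p = 0.00525). It was the lowest of the 10 in both groups, and its wild-type bounds were the widest, at 12.1% and 13.9% of the value on either side. Other annotated transcripts overlap 12.9% of srx1, and their part in its value was not tested. The call was lost without labelled deletion replicate 1 (adjusted p = 0.0544). The level of tpx1 was 45.0 and 54.3 times that of srx1 in the labelled deletion libraries and 40.5 and 78.9 times in wild type, in FPKM per library. These ranges overlap, so no change in the balance of peroxidase and repair transcripts was resolved.

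Neither gene that recycles Tpx1 was called. trx1 (SPAC7D4.07c, I:2625316-2625855, plus strand, 1 exon), for the cytosolic thioredoxin, stood at 1817 and 1814 FPKM under the deletion label, against 1421 and 1727 FPKM in wild type. The 95% interval of its difference of 0.21 ran from -0.20 to 0.62 (adjusted p = 0.386), whose upper end lies below the lower end of the interval of tpx1, 1.12. trr1 (SPBC3F6.03, II:4189144-4191448, plus strand, 2 exons), for the NADPH-dependent reductase of thioredoxin, was at 123.4 and 125.7 FPKM against 86.9 and 99.8 FPKM. Its groups did not overlap, and the difference of 0.42 (95% interval 0.14 to 0.69) missed the threshold over all genes (adjusted p = 0.0597). Relative to the median of all tested genes these differences were 0.08 and 0.29. Leaving out wild-type replicate 1 or 2 brought trr1 under the threshold (0.32 and 0.51), and leaving out wild-type replicate 2 did so for trx1 (0.35). The thioredoxin to reductase ratio of levels was 14.7 and 14.4 in the labelled deletion libraries and 16.3 and 17.3 in wild type.

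The trr1 value carries a limit of annotation. The transcript in the files starts 655 nt before the RefSeq start of the gene, so the promoter window of trr1 lies inside it, and FPKM is scaled by its full length of 2006 nt. The non-coding RNA SPNCRNA.1678 runs on the other strand over 65.9% of it. At 2.21 and 1.76 FPKM against 2.33 and 1.66 FPKM, that RNA was far below trr1 in every library and was not called (adjusted p = 0.999). Reads of the pair cannot be told apart where no strand setting is given, and the part of that RNA in the trr1 value was not tested.

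obr1 (SPAC3C7.14c, I:2094110-2095066, minus strand, 1 exon), annotated as a quinone-reducing NAD(P)H dehydrogenase and long used as a marker of Pap1 activity, showed the clearest difference of the 10. It stood at 1428 and 1434 FPKM under the deletion label, against 379.4 and 352.1 FPKM in wild type. Replicates differed little in both groups, and the mean was 3.91-fold higher. The difference was 1.97 ± 0.11 (adjusted p = 0.00164), called in all 12 alternative settings at 1.83 to 2.15. SPNCRNA.793 covers 100% of obr1 on the other strand, at 9.92 and 13.2 FPKM against 6.13 and 4.71 FPKM. It was itself called higher by 0.96 ± 0.23 (adjusted p = 0.0492), a call lost in 9 of 12 alternative settings. With no strand setting given, reads of the pair cannot be told apart, and the part of SPNCRNA.793 in the obr1 value was not tested.

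pap1 (SPAC1783.07c, I:2200353-2203135, minus strand, 1 exon), whose protein switches obr1 on, was at 182.5 and 172.5 FPKM against 162.2 and 150.2 FPKM. The libraries just failed to overlap, and the difference of 0.18 was not called (95% interval -0.06 to 0.43, adjusted p = 0.236). It was 0.05 relative to the median of all tested genes. Without wild-type replicate 1 it was called, at 0.24. Transcript levels do not report where the Pap1 protein was in the cell.

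**Figure D2:**
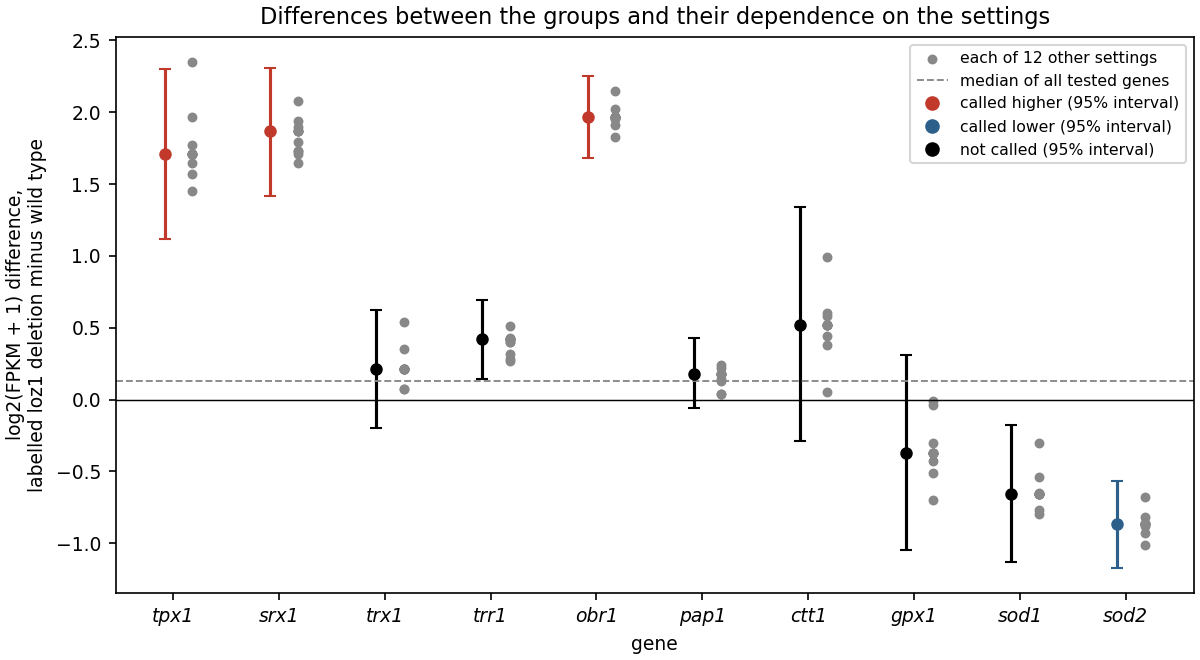
Difference of each gene between the groups on the log2(FPKM + 1) scale with its 95% interval from limma (red called higher, blue called lower, black not called), the 12 alternative settings as grey points, and the median of all tested genes as a dashed line at 0.13. tpx1, srx1 and obr1 stay between 1.45 and 2.35 in every setting, while ctt1 runs from 0.05 to 0.99 and gpx1 from -0.70 to -0.01.

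Catalase and glutathione peroxidase, which destroy hydrogen peroxide outside the peroxiredoxin cycle, spread widely between the wild-type libraries. ctt1 (SPCC757.07c, III:56654-58865, minus strand, 1 exon) stood at 517.0 and 576.3 FPKM under the deletion label, against 526.5 and 274.0 FPKM in wild type, so the groups overlapped. The difference was 0.52 with a 95% interval of -0.29 to 1.34 (adjusted p = 0.295). Against wild-type replicate 2 alone, that is without replicate 1, it was called at 0.99 (adjusted p = 0.00276), and without replicate 2 it was 0.05. gpx1 (SPBC32F12.03c, II:2788863-2789614, minus strand, 1 exon) was at 2257 and 2477 FPKM against 3839 and 2426 FPKM. Wild-type replicate 2 lay inside the labelled deletion range, and the difference of -0.37 was not called (95% interval -1.05 to 0.31, adjusted p = 0.367). It was -0.70 without wild-type replicate 2 (adjusted p = 0.0139) and -0.04 without replicate 1. Neither ctt1 nor gpx1 can therefore be given a direction from 2 wild-type libraries.

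Between the wild-type libraries ctt1 differed by 0.94 and gpx1 by 0.66 (log2, replicate 1 minus 2), while tpx1 differed by -0.51 and obr1 by 0.11. In a list of 15 tested Atf1 and Pap1 stress-response genes, 4 of which are among the 10, wild-type replicate 1 was above replicate 2 in 11, with a median of 0.66, beside 0.05 over all tested genes. A lean to replicate 1 was also found in 16 of 18 hydrogen peroxide signalling genes (median 0.47) and 5 of 7 copper and manganese supply genes (median 0.30). It was absent from the thiol redox and glutathione list, where 8 of 16 genes were higher in replicate 1 (median -0.01). Over all tested genes, 3553 of 6315 were higher in replicate 1. Between the labelled deletion libraries the median of the stress-response list was -0.07.

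**Figure D3:**
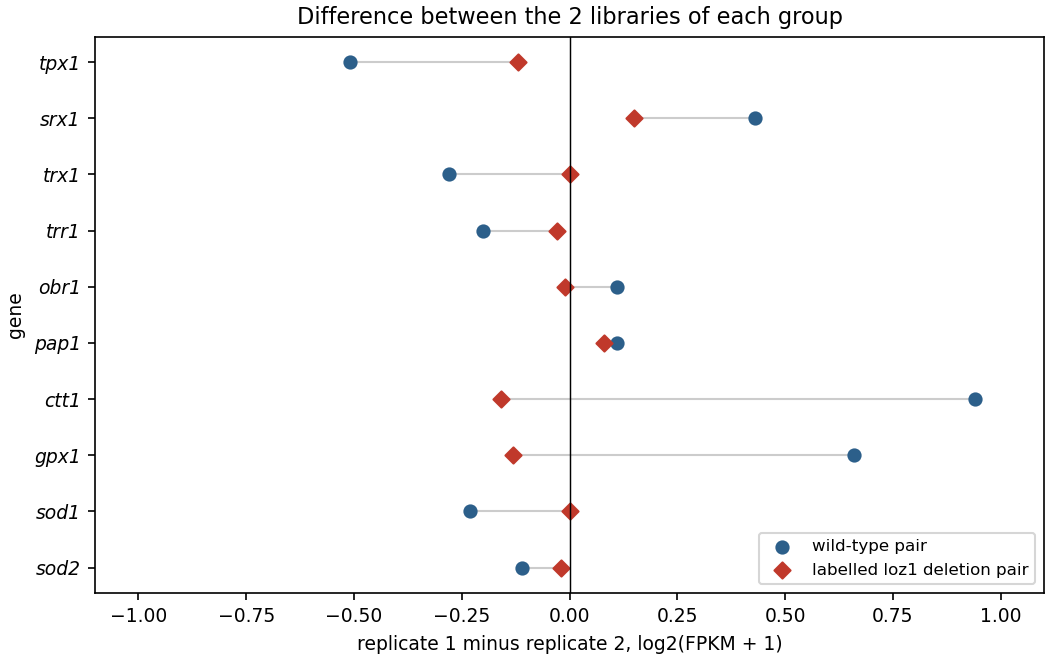
Difference between replicates 1 and 2 of each group for the 10 genes, on the log2(FPKM + 1) scale, with wild type as blue circles and the labelled loz1 deletion as red diamonds. The labelled deletion pair stays within -0.16 and 0.15, and the wild-type pair spreads from -0.51 for tpx1 to 0.94 for ctt1.

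Of the superoxide dismutase genes, sod2 fell in the labelled deletion libraries, and sod1 lay below wild type without passing the test. sod2 (SPAC1486.01, I:3185314-3186584, plus strand, 2 exons), for the mitochondrial manganese enzyme, stood at 708.2 and 716.3 FPKM under the deletion label, against 1255 and 1354 FPKM in wild type. The pairs were tight and far apart. It fell by 0.87 ± 0.12 on the log2 scale (adjusted p = 0.0144), to 0.546 of the wild-type mean. The call was lost without labelled deletion replicate 1 or 2 (adjusted p = 0.295 and 0.290), with differences of -0.86 and -0.88, and was kept in the other 10 settings. The gene dsc2, on the other strand, covers 22.9% of sod2 and was at 63.1 and 60.6 FPKM against 54.9 and 54.9 FPKM. It was not called (adjusted p = 0.257). The part of dsc2 reads in the sod2 value was not tested, as no strand setting is given.

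sod1 (SPAC821.10c, I:1002838-1003600, minus strand, 1 exon), for the enzyme that needs both copper and zinc, stood at 2776 and 2786 FPKM under the deletion label, against 4044 and 4759 FPKM in wild type. The groups did not overlap, and the mean in the labelled deletion was 0.632 of that in wild type. The difference of -0.66 had a 95% interval of -1.13 to -0.18, which excludes 0 before adjustment, but missed the threshold over all genes (adjusted p = 0.0735). It was called without wild-type replicate 1 (-0.77) or 2 (-0.54), and was -0.30 with quantile normalization. Relative to the median of all tested genes sod1 stood at -0.79. The level of sod1 was 3.92 and 3.89 times that of sod2 in the labelled deletion libraries and 3.22 and 3.52 times in wild type.

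The order of the levels differed between the groups. In wild type the mean FPKM ran from sod1 (4401), gpx1 (3133), trx1 (1574), tpx1 (1554) and sod2 (1305) to ctt1 (400.3), obr1 (365.7), pap1 (156.2), trr1 (93.3) and srx1 (27.4). The ranges of trx1 and tpx1, of tpx1 and sod2, and of ctt1 and obr1 overlapped there. In the labelled deletion tpx1 (5012) came before sod1 (2781), gpx1 (2367), trx1 (1815) and obr1 (1431), followed by sod2 (712.3), ctt1 (546.6), pap1 (177.5), trr1 (124.6) and srx1 (101.5), and no neighbours overlapped. The level of tpx1 was 1.73 and 1.87 times that of sod1 in the labelled deletion libraries and 0.317 and 0.384 times in wild type.

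The 3 genes whose pattern over the 4 libraries lay nearest to obr1, the gene of the 10 with the largest difference, were its8, SPCC306.11 and cbf12. Nearness was the Euclidean distance of log2(FPKM + 1) values centred on each gene's mean, at 0.08, 0.15 and 0.19, over 4 libraries, which makes it a measure of like fold changes and little else. its8, of GPI anchor synthesis, was at 121.2 and 119.0 FPKM against 30.8 and 26.9 FPKM, SPCC306.11 at 108.5 and 114.1 against 29.6 and 30.1, and cbf12, for a transcription factor, at 26.9 and 27.5 against 7.69 and 6.69.

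Other genes of the pathway were described from lists, with the values of the labelled deletion libraries given before those of wild type. Of 16 tested thiol redox and glutathione genes outside the 10, 4 were called higher and 1 lower, with a median difference of 0.11. Over all tested genes the shares called were 11.9% higher and 4.37% lower. gcs1 and gcs2, for the catalytic and regulatory subunits of the enzyme that starts glutathione synthesis, were higher by 0.87 and 0.59. The glutathione reductase gene pgr1 was at 118.5 and 108.7 against 83.1 and 78.4 FPKM, higher by 0.49 (adjusted p = 0.0372), and the glutaredoxin gene grx2 was higher by 0.48. The glutaredoxin gene grx1 was lower by contrast, at 1683 and 1739 against 3044 and 3128 FPKM, a difference of -0.85 (adjusted p = 0.0265). None of the 4 higher calls was kept after median-ratio rescaling, and grx1 was not called with quantile normalization.

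Among 18 tested genes of hydrogen peroxide signalling, 3 were called higher and 0 lower with limma, beside 11.9% and 4.37% of all tested genes. Their median was -0.11, and 3 and 1 had an unadjusted p under 0.05. pyp2, for a phosphatase that turns Sty1 off and is itself a stress-response gene, was at 129.0 and 135.7 against 57.3 and 31.0 FPKM, a difference of 1.63 (adjusted p = 0.0283). prr1, for a factor that works beside Pap1 in the oxidative stress response, was at 156.6 and 152.7 against 92.6 and 72.9 FPKM, higher by 0.90 (adjusted p = 0.02). pcr1, for the partner of Atf1, was higher by 0.44, a call lost after rescaling, and those of pyp2 and prr1 were lost with no filter on low values. The MAP kinase kinase gene wis1 was at 6.94 and 6.74 against 10.4 and 9.41 FPKM and was not called (adjusted p = 0.114).

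Of the 15 tested Atf1 and Pap1 stress-response genes 3 were called higher and 1 lower, with a median of 0.09. Leaving out the 4 of the 10 genes that the list holds, it was 2 and 1 of 11, with a median of 0.01. The shares over all tested genes were 11.9% and 4.37%. The calls outside the 10 genes were pyp2 (1.63), hsp104 (0.39), for a protein disaggregase, and hsp16 (-1.11), for a small heat shock protein. hsp16 was at 4553 and 4879 against 10167 and 10251 FPKM, and its call and that of hsp104 were lost after rescaling. hsp9, abundant in late growth, was at 6805 and 6970 against 18975 and 11506 FPKM and was not called (adjusted p = 0.0905). The largest difference in the list was that of obr1 (1.97).

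In the list of 7 copper and manganese supply genes, for transporters and chaperones, 2 were called higher and 1 lower, with a median of 0.33. Only ccs1 among them is annotated as specific to a superoxide dismutase, so the counts do not describe metal supply to these enzymes alone. The shares called over all tested genes were 11.9% and 4.37%. ccs1, for the chaperone that loads copper into Sod1, was at 187.3 and 182.1 against 248.2 and 246.6 FPKM, a difference of -0.42 (adjusted p = 0.0396), a call lost with a prior without a trend (adjusted p = 0.0767). The copper uptake gene ctr5 and the copper chaperone gene atx1 were higher, by 0.80 (adjusted p = 0.0233) and 0.58, the latter not called after rescaling and the former not called with no filter on low values. ctr4, whose protein forms the importer with Ctr5, was at 46.7 and 49.8 against 37.8 and 20.1 FPKM and was not called (adjusted p = 0.133). Within a library sod1 was at 14.8 and 15.3 times the level of ccs1 in the labelled deletion and at 16.3 and 19.3 times in wild type. Over the 4 lists, obr1 was the 1 call kept both without labelled deletion replicate 1 and without replicate 2.

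**Figure D4:**
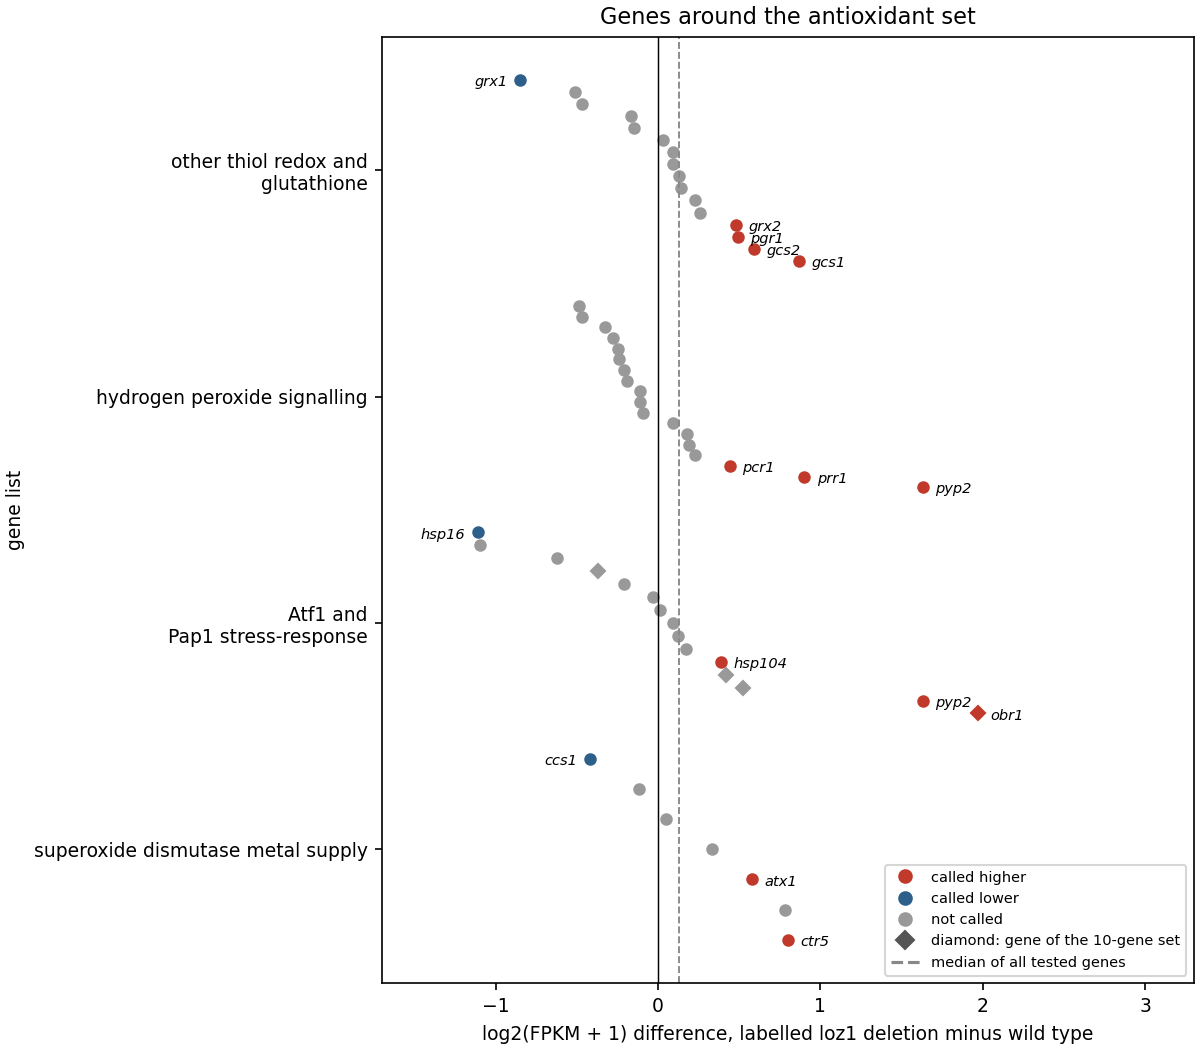
Difference between the groups on the log2(FPKM + 1) scale for the tested genes of 4 lists, red if called higher, blue if called lower and grey if not called, with diamonds for genes of the 10-gene set and a dashed line at the median of all tested genes (0.13). Most points lie near the dashed line, with pyp2 at 1.63 and obr1 at 1.97 on the right and hsp16 at -1.11 on the left.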

How the data were processed

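Total RNA of 4 libraries was sequenced. Each file that the authors deposited lists 7093 transcripts with an FPKM value and its bounds, 1 file per library, made with Cufflinks per the file headers. HISAT2, SAMtools, Cufflinks and Cuffdiff on build ASM294v2 are named per the submitters' processing notes. The sources used here give no versions, strand setting or handling of multiply mapped reads. FPKM values are not counts, so no count model was used.

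FPKM was summed per gene. The test took genes averaging 1 FPKM or more whose longest transcript reached 200 nt. Values entered as log2(FPKM + 1), without rescaling, into limma 3.58.1 in R 4.3.3 (trended empirical Bayes prior, two-sided, Benjamini-Hochberg adjustment, n = 2 per group). Fold changes on that scale understate those of low genes. The fit was tested on simulated data. The members, lists and tests were chosen with earlier results of these data known. Named genes were the 10 members, loz1, transcripts that overlap at least 20% of a member, up to 4 genes with the smallest p per list, and the 3 nearest profiles to the member with the largest difference. gcs2, mat1-Mc, mat3-Mc, SPMTR.04, SPNCRNA.1258 and zrt1 were named after their values were seen. Depth was estimated from the bounds of transcripts alone at their locus. Bounds cover counting and assignment error only.

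Sequences are RefSeq's, in build ASM294v3. Of 5327 introns in the files 98% were identical there, and 6631 gene identifiers matched. No 100-nt stretch of the 10 genes, sampled every 10 nt, occurred more than once in the nuclear chromosomes.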

Additional observations from a re-analysis of the deposited data

How the results depend on the processing

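The 12 alternative settings gave 120 values for the 10 genes. None turned the direction of a difference, 107 kept their side of the threshold, 8 newly passed it and 5 no longer did. All 13 changes came from leaving out a library, and such a fit assumes that the lone library varies like the others. The 3 higher and 1 lower calls ranged from 1 to 6 and from 0 to 3 when 1 library was left out. Over all genes the 753 higher and 276 lower calls ranged from 73 to 2115 and from 40 to 880 in those fits. They were 462 and 161 with no filter on low values. The higher calls were 434 after median-ratio rescaling and 418 with quantile normalization, beside 321 and 306 lower calls, so higher calls made up 57.5% and 57.7% in place of 73.2%. The difference of SPNCRNA.1678, 0.00079, turned to -0.00086 with a pseudocount of 5, to -0.09 after rescaling, to -0.16 with quantile normalization, to -0.11 without labelled deletion replicate 1 and to -0.16 without wild-type replicate 2, and was 0.16 without wild-type replicate 1. The cause of these changes was not tested.

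Replicate numbers were shared by the groups, but deviations of same-numbered libraries had a correlation of -0.012 across genes, which are not independent, and nothing in the labels pairs them. With the replicate number as a block, 538 genes were called higher and 224 lower, and the calls among the 10 genes were the same 3 and 1. Of the other named genes, grx2, pgr1, gcs2, pcr1, hsp104, hsp16, ccs1 (adjusted p = 0.0831) and SPNCRNA.793 were not called with it. With 2 libraries per group, an exact permutation test of a single gene cannot reach 0.05, so calls rest on the spread limma shares between genes.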
